A study of Mus musculus with 44 samples.

Results

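Hippocampal gene expression was compared between Kdm5b mutant and wild-type (WT) mice 1 h after contextual fear conditioning. The comparison holds 12 libraries of dorsal hippocampus, each from 1 mouse, out of 44 samples in the series. WT and mutant groups had 6 mice each, 3 labelled male and 3 labelled female. All 12 mice were trained: after 148 s of free exploration they received 3 foot shocks of 0.7 mA, each lasting 2 s, with 30 s between shocks. Mutants were homozygous for the Kdm5bDARID allele, which lacks exons coding for part of the JmjN domain and the whole ARID domain, and the protein it codes for is shorter and demethylase-deficient. The allele is in the germ line, so it is not limited to the brain or to adult life. Both groups were F2 mice bred from mutant males on a C57BL/6J background and 129S2/Sv females, and were studied as young adults. Naive mice (0 h) and mice taken 3 h after training, again 6 per genotype, served for comparison.

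KDM5B removes methyl groups from trimethylated lysine 4 of histone H3, a mark of active promoters that is found most at CpG-rich start sites. Contextual fear conditioning pairs a place with a shock, and the hippocampus is needed to remember the place. Within the hour after training, neurons that fired transcribe immediate early genes such as Fos, Egr1 and Npas4, whose products switch on later genes of synaptic change. The comparison asks how transcript levels differ between the genotypes when this early wave is present.

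Library totals at 1 h ran from 53798470 to 86720768 counts, and 17261 genes passed the filter on low counts. Levels are given as CPM, a gene's share of the library's counts after TMM scaling over all 36 libraries of the cohort, with the mean ± SD of the 6 mice of a group. Markers of the labelled tissue were present in all 12 libraries, with summed levels of 737.4 to 1047 CPM for dentate granule cells and 819.6 to 1292 CPM for CA1 pyramidal cells. The library labelled WT male 1 went against its label. It held 51186 counts of Xist and 0 counts of Ddx3y, Eif2s3y, Uty and Kdm5d, whereas the other 5 libraries labelled male held at most 46 counts of Xist. It was kept under its label. Whether it is a WT mouse of the 1 h group cannot be told from the labels, and this limits what every WT mean and fold change at 1 h shows. The main counts and values that moved without it are given both ways. At 3 h the library labelled mutant female 2 also went against its label, with 36 counts of Xist and 4185 of Ddx3y.

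Kdm5b itself (chr1:134560178-134632878, GRCm38) was read at 79.4, 91.0, 97.0, 94.0, 89.9 and 91.5 CPM in WT males 1 to 3 and females 1 to 3, and at 90.6, 88.8, 84.0, 87.2, 87.6 and 81.1 CPM in the mutants in the same order. The groups overlapped. On the log2 scale mutants differed from WT by −0.06 (SE 0.05), with an edgeR adjusted p of 0.736. Without WT male 1, the lowest WT value, the difference was −0.10 (SE 0.04, unadjusted p 0.0156). At 0 h it was −0.11 (SE 0.04, unadjusted p 0.0150) and at 3 h −0.08 (SE 0.04, unadjusted p 0.0556). A count covers the whole gene, so transcripts with and without the deleted exons are not separated, and the gene overlaps Mgat4e.

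By the edgeR quasi-likelihood test no gene of 17261 passed an adjusted p of 0.05 (0%), and the smallest adjusted p was 0.0875. At an unadjusted p under 0.05 there were 1487 genes (8.61%), 748 higher (4.33%) and 739 lower (4.28%) in mutants. The groups did not overlap for 104 genes (0.603%), 57 higher (0.330%) and 47 lower (0.272%) in mutants. DESeq2 with sex as a covariate called 100 genes in the same 12 libraries, 71 higher and 29 lower. Without WT male 1 the edgeR test called 41 genes (0.236%), 36 higher and 5 lower, and 1795 genes (10.3%) had an unadjusted p under 0.05, 916 higher (5.27%) and 879 lower (5.06%). The results below name the 16 genes with the smallest p among those higher in mutants and the 10 among those lower, at a mean of at least 1 CPM. As they were ranked on this comparison, their fold changes at 1 h are those of a selected group. All 26 were among the DESeq2 calls with sex, and 15 of them were among the 41 genes called by edgeR without WT male 1. These were C1qtnf4, C1ql2, Mpzl2, Mkx, Pcdhga2, Pcdhga9, Utp14b, Wdr95, Xlr3a and Ogn among the higher genes and Qsox1, Serpine2, Fzd7, mt-Rnr2 and Scly among the lower.

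Of the 26 genes, 3 code for secreted proteins with a C1q domain. C1ql2 and C1ql3 are released by dentate granule cells at mossy fiber synapses, where they bind postsynaptic kainate receptors and presynaptic neurexin. C1qtnf4 is a related secreted protein. The promoters of C1ql2 and C1ql3, the mossy fiber organizers among them, are shown beside those of Serpine2 and Fzd7, named as lower in mutants. They are the 250 bases before the RefSeq start site in GRCm38.p6, 5′ to 3′ on the strand of the gene, with CpG dinucleotides in capitals: C1ql2 at chr1:120340332-120340581 on the plus strand, C1ql3 at chr2:13010865-13011114 on the minus strand, Serpine2 at chr1:79858666-79858915 on the minus strand and Fzd7 at chr1:59481897-59482146 on the plus strand.
C1ql2: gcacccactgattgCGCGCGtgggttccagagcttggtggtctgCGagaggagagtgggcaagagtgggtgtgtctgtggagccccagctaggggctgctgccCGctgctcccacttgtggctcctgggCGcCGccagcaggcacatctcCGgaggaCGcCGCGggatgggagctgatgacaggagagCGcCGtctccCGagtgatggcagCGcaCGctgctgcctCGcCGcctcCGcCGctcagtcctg
C1ql3: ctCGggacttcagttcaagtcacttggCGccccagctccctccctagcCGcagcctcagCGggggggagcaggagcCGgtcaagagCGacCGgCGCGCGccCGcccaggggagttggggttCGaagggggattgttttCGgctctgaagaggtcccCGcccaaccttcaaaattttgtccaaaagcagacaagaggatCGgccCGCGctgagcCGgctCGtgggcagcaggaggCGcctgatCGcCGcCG
Serpine2: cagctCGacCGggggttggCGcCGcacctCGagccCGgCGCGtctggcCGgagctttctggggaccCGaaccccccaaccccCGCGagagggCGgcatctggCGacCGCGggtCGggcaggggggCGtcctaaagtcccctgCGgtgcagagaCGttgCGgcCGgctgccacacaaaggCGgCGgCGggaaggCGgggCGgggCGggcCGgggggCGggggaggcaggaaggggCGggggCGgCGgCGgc
Fzd7: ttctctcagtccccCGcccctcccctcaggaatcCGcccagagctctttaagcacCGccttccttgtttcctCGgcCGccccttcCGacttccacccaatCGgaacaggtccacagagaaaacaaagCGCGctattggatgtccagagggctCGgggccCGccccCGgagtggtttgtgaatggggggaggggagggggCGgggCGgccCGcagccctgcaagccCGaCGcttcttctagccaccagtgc
These windows hold 20, 23, 34 and 17 CpG, against a median of 14 over the 12930 tested genes with a window of this length. The 4 are not typical of their groups: the 9 named higher genes with a window had a median of 9 CpG (3 to 37), and the 7 named lower genes one of 20 (2 to 34). The windows of genes at an unadjusted p under 0.05 had a median of 14 CpG where mutants were higher (550 genes) and 12 where they were lower (540 genes). The cAMP response element TGACGTCA, which reads alike on both strands, is in none of the 4 windows and in 2.52% of the windows of tested genes. The Egr motif GCGGGGGCG, searched on both strands, is in the Serpine2 window alone of the 4 and in 4.66% of all. A match of letters is no evidence of binding.

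C1ql2 (gene 226359, chr1:120340582-120343174) was read at 64.2, 40.1, 39.0, 41.6, 38.7 and 46.0 CPM in WT males 1 to 3 and females 1 to 3, and at 95.4, 70.3, 93.1, 94.0, 85.7 and 89.4 CPM in mutants. All 6 mutant libraries lay above all 6 WT libraries, and the highest WT value was that of WT male 1. The means were 44.9 ± 9.80 and 88.0 ± 9.36 CPM, a log2 fold change of 0.97 (SE 0.13, adjusted p 0.0875). When WT male 1 was left out, the log2 fold change was 1.11 (adjusted p 4.41e-05), so C1ql2 rose by that test. In bulk tissue, more dentate granule cells and more RNA per granule cell cannot be told apart from 1 gene. The 11 granule cell markers, C1ql2 among them, had a median log2 fold change of 0.11 (0.12 without WT male 1). The share of granule cells was not tested.

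C1qtnf4 (gene 67445, chr2:90882788-90890526) lay between 146.2 and 174.8 CPM in WT against 185.9 to 223.6 CPM in mutants. Its log2 fold change was 0.33 (SE 0.05, adjusted p 0.0875), and 0.32 without WT male 1 (adjusted p 0.0345). C1ql3 (gene 227580, chr2:13001887-13010864, overlapping Pter) lay between 100.4 and 128.2 CPM in WT against 128.7 to 151.7 CPM in mutants, with a log2 fold change of 0.23 (SE 0.05, adjusted p 0.191). The groups of both genes were separate, by a narrow margin for C1ql3. The list of C1q-like proteins and cerebellins has 9 members, of which 8 were tested. Of these, 3 (C1ql2, C1qtnf4 and C1ql3 themselves, with no further member) were higher at an unadjusted p under 0.05, beside 4.33% of all genes, and none lower, and the list's median log2 fold change was 0.05, against −0.002 over all genes tested. With WT male 1 left out, the list again had 3 higher members, with a median of 0.10. Among 19 receptors and partners of these organizers, 2 were higher at that threshold: the kainate receptor subunit gene Grik3, at 0.21 (SE 0.09, p 0.0359), and Lrrtm4, a postsynaptic adhesion protein gene, at 0.19 (SE 0.07, p 0.0245).

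**Figure D1:**
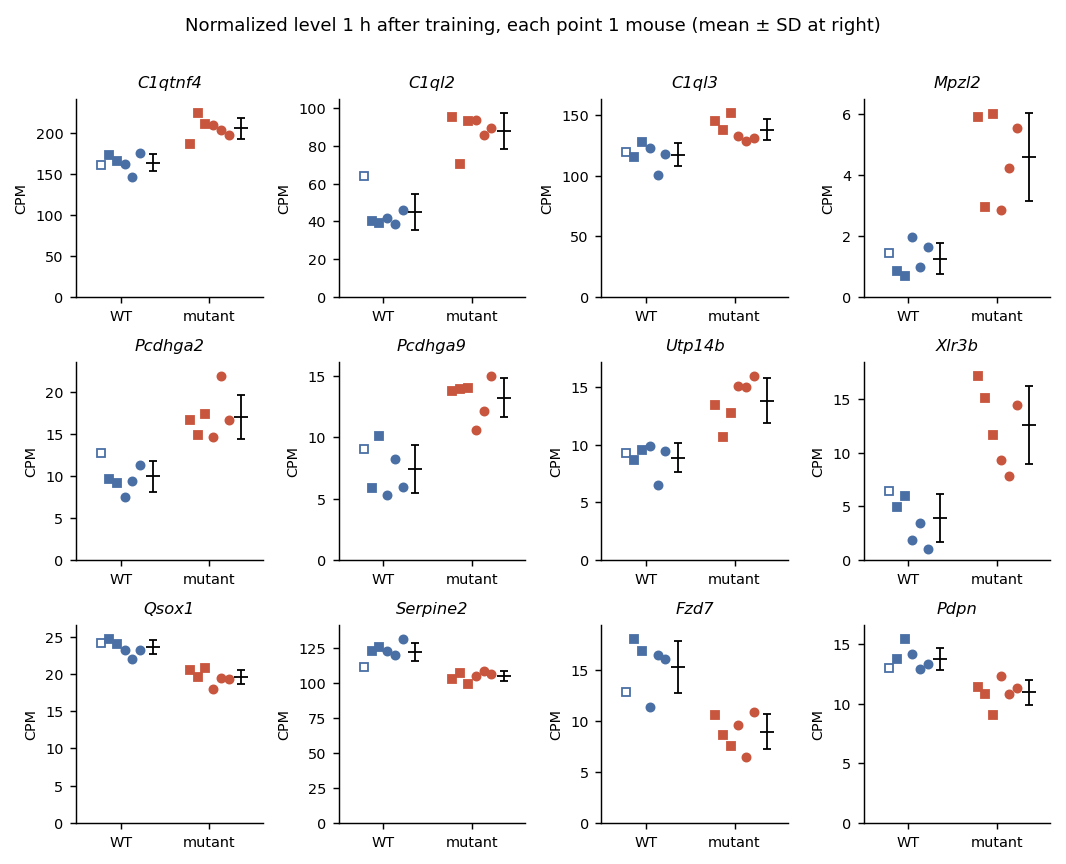
Normalized level in CPM (y axis, from 0) of 12 of the named genes in each of the 6 WT and 6 mutant mice 1 h after training. Squares are libraries labelled male, circles libraries labelled female, the open square is WT male 1, and bars give the mean ± SD. Mutants lie above all WT libraries for the 8 genes of the upper 2 rows and below all of them for the 4 genes of the bottom row, for example 70.3 to 95.4 against 38.7 to 64.2 CPM for C1ql2. Named genes whose groups overlapped are not drawn.

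Of the other higher genes, Mpzl2 (chr9:45042344-45054043), an immunoglobulin-type adhesion protein gene, was at 1.25 ± 0.498 CPM in WT against 4.57 ± 1.44 CPM in mutants, the widest log2 fold change among the 26 at 1.89 (SE 0.29, adjusted p 0.0875). Its 6 mutant values, from 2.84 to 5.999 CPM, all lay above the 6 WT values, from 0.679 to 1.96 CPM. Pcdhga2 and Pcdhga9 belong to the gamma protocadherins, cell surface proteins by which neurons tell their own branches from others. Pcdhga2 was read at 12.7, 9.69, 9.10, 7.44, 9.41 and 11.2 CPM in WT against 16.7, 14.8, 17.3, 14.6, 21.9 and 16.7 CPM in mutants (log2 fold change 0.78, SE 0.13, adjusted p 0.0875). Pcdhga9 was at 7.401 ± 1.98 CPM in WT against 13.2 ± 1.61 CPM in mutants (0.85, SE 0.14, adjusted p 0.0875). The groups were apart for both. The 22 gamma protocadherins share their last exons and overlap in the annotation, so reads may be split between them. Of the 22, a list added after the values were seen, 5 were higher and 1 lower at an unadjusted p under 0.05. Pcdhga2 and Pcdhga9 are among the 5. Of all genes 4.33% were higher and 4.28% lower. The median log2 fold change of the 22 was 0.07. In the fit that omitted WT male 1, 5 of the 22 were higher and 2 lower, beside 5.27% and 5.06% of all genes. The median of the 22 was then 0.02. Pcdhgc3 was the lower one, at 77.1 ± 3.41 CPM in WT against 72.3 ± 2.41 CPM in mutants. Ogn, the matrix proteoglycan osteoglycin, was at 12.5 ± 3.95 and 18.5 ± 2.54 CPM, and 2 of its 6 mutant values exceeded every WT value. WT male 1, at 19.2 CPM, set that count: the other WT libraries lay between 9.38 and 15.4 CPM and the mutants between 16.3 and 22.6 CPM, and Ogn rose by 0.71 on the log2 scale in the test that left it out (adjusted p 0.0053). Has1, a hyaluronan synthase gene overlapping Spaca6, was at 1.22 ± 0.365 and 2.33 ± 0.408 CPM (log2 fold change 0.96, SE 0.19, adjusted p 0.160).

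Among the remaining higher genes, Utp14b (chr1:78657825-78667601), a retrogene for a ribosome assembly factor that lies within Acsl3, went from 8.87 ± 1.22 CPM in WT to 13.8 ± 1.94 CPM in mutants (log2 fold change 0.63, SE 0.11, adjusted p 0.0879). The groups were separate. Mkx, a homeobox transcription factor gene, was at 13.0 ± 1.11 and 17.1 ± 0.903 CPM (0.40, SE 0.07, adjusted p 0.0875). Apc2, a neuronal relative of the Wnt pathway gene Apc, differed little in size but beyond the spread of the mice, at 169.6 ± 2.92 and 192.2 ± 8.33 CPM (0.18, SE 0.03, adjusted p 0.140). The X-linked genes Xlr3b and Xlr3a were at 3.93 ± 2.24 and 0.779 ± 0.490 CPM in WT against 12.6 ± 3.62 and 2.18 ± 0.409 CPM in mutants. These are close copies of one another, so the split of reads between them is uncertain. Wdr95, Arsi and 4930413G21Rik complete the list, with log2 fold changes of 1.29, 1.26 and 0.31. Wdr95 rose by 1.56 in the test that left out WT male 1 (adjusted p 0.00311). All 6 mutant libraries lay above all 6 WT libraries for 13 of the 16 genes, beside 0.330% of all genes tested. The 16 were ranked on these same libraries, so this count follows in part from that choice.

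The genes lower in mutants differed by smaller amounts, with a median size of 0.31 on the log2 scale against 0.81 for the 16 higher genes. Qsox1 (gene 104009, chr1:155778155-155812899), a secreted enzyme that forms disulfide bonds, was read at 24.3, 24.7, 24.04, 23.3, 22.1 and 23.3 CPM in WT against 20.6, 19.6, 20.8, 17.98, 19.5 and 19.4 CPM in mutants. Every mutant library lay below every WT library, and the log2 fold change was −0.27 (SE 0.04, adjusted p 0.0875). Serpine2 (gene 20720, chr1:79794317-79858665), the protease inhibitor nexin-1, whose promoter is shown above, was at 122.3 ± 6.64 and 104.9 ± 3.33 CPM, again with no overlap (−0.22, SE 0.04, adjusted p 0.0875). Without WT male 1, whose 111.2 CPM was the lowest WT value, Serpine2 fell by 0.24 on the log2 scale (adjusted p 0.0123). Fzd7 (gene 14369, chr1:59482147-59486955), a Wnt receptor gene, was read at 12.9, 18.002, 16.9, 11.4, 16.5 and 16.1 CPM in WT against 10.6, 8.64, 7.50, 9.56, 6.48 and 10.9 CPM in mutants. It had the widest difference of the 10, at −0.77 (SE 0.14, adjusted p 0.144).

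The other 7 lower genes span several functions. Tgfb2, a growth factor gene, was at 74.5 ± 12.1 CPM in WT against 55.8 ± 5.03 CPM in mutants (−0.41, SE 0.09, adjusted p 0.224), and Ccnd1, cyclin D1, at 54.1 ± 7.22 and 42.4 ± 3.58 CPM (−0.35, SE 0.08, adjusted p 0.215). Pdpn, the membrane protein podoplanin, was at 13.8 ± 0.935 and 11.0 ± 1.07 CPM without overlap. Nrsn1, a neuronal vesicle protein gene, was at 274.7 ± 5.36 and 241.2 ± 15.7 CPM, also without overlap. Scly, selenocysteine lyase, and Zxda, annotated as a transcribed pseudogene, had log2 fold changes of −0.29 and −0.36. The mitochondrial 16S ribosomal RNA, mt-Rnr2, was at 4773 ± 523 and 3936 ± 133 CPM, and is taken up below with the other mitochondrial genes.

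Leaving out WT male 1 brought 41 genes past the threshold, among them D2hgdh, Asic4, Eya1, Cnn2 and Stat6, which were not in the lists above. Asic4, an acid-sensing ion channel family gene on chromosome 1, was read at 16.8 CPM in WT male 1, at 3.28, 2.41, 3.96, 4.07 and 4.77 CPM in the other WT libraries and at 17.3, 14.1, 13.7, 14.9, 12.7 and 12.2 CPM in mutants. WT male 1 thus lay among the mutants and apart from its own group. Without it the log2 fold change was 1.96 (SE 0.16, adjusted p 8.91e-05), and with it 1.32 (adjusted p 0.417). D2hgdh, the gene of D-2-hydroxyglutarate dehydrogenase, showed the same order: 10.3 CPM in WT male 1, 4.24 to 5.31 CPM in the other 5 and 9.21 to 11.1 CPM in mutants (1.06 without WT male 1, SE 0.08, adjusted p 4.43e-05).

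Eya1, a transcriptional coactivator gene, was at 31.1 CPM in WT male 1, at 20.1 to 21.0 CPM in the other WT libraries and at 27.3 to 31.7 CPM in mutants. Cnn2, calponin 2, was at 7.45 CPM in WT male 1, at 3.27 to 5.26 CPM in the others and at 6.62 to 10.2 CPM in mutants. The position of WT male 1 was not used in choosing these 41 genes. It fell within the range of the 6 mutants for 25 of the 41, within the range of the 5 other WT libraries for 8 and in neither range for 8. It was closer to the mutant mean than to the mean of the other WT libraries for 31 of the 41. Among the exceptions were C1qtnf4, Mkx, Mpzl2 and Utp14b, for which it lay among the WT libraries.

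Immediate early genes were compared next, in a list of 22 transcription factor genes that neuronal activity induces. None passed the adjusted threshold. Bhlhe40, a basic helix-loop-helix repressor also tied to the circadian clock, was higher at an unadjusted p under 0.05, at 125.0 ± 11.7 CPM in WT against 141.8 ± 8.004 CPM in mutants (log2 fold change 0.18, SE 0.06, p 0.00721), and no member was lower. Of the 22 members 20 were above 0, beside 8459 of all 17261 genes, and their median log2 fold change was 0.14. After omission of WT male 1, those values were 16 of 22 and 0.06.

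Fos was read at 11.6 CPM in WT male 1, at 34.5, 30.5, 27.0, 19.2 and 30.2 CPM in the other WT libraries and at 31.8, 28.6, 24.2, 33.2, 30.4 and 24.4 CPM in mutants. WT male 1 was the lowest of the 12, and the other libraries overlapped. The log2 fold change of Fos was 0.17 (SE 0.23, p 0.475), and 0.02 without WT male 1. Egr1, a zinc finger factor gene, was at 105.7 CPM in WT male 1, at 185.4 to 279.8 CPM in the other WT libraries and at 230.9 to 342.6 CPM in mutants (0.29, SE 0.23, p 0.243, and 0.14 without WT male 1). Egr2 was at 1.597 CPM in that library against 6.92 to 13.9 CPM in the other WT libraries and 9.40 to 17.5 CPM in mutants. The nuclear receptor gene Nr4a1 was at 48.9 CPM there, at 85.7 to 163.6 CPM in the other WT libraries and at 103.4 to 155.9 CPM in mutants. WT male 1 was the lowest of the 12 libraries for 12 of these 22 genes, compared with 11.5% of all genes tested.

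Npas4, a neuron-specific factor gene, was the member with the lowest difference, at −0.27 (SE 0.14, p 0.0852) and −0.30 without WT male 1. Its values ran from 9.90 to 23.3 CPM in WT against 9.85 to 17.4 CPM in mutants. The SD of log2 levels was larger in WT than in mutants for 19 of the 22 genes, also without WT male 1. Of all 17261 genes this held for 10084, and for 9448 without that library. The 22 genes were read in the same mice and are not separate measures of spread, which was not tested.

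**Figure D2:**
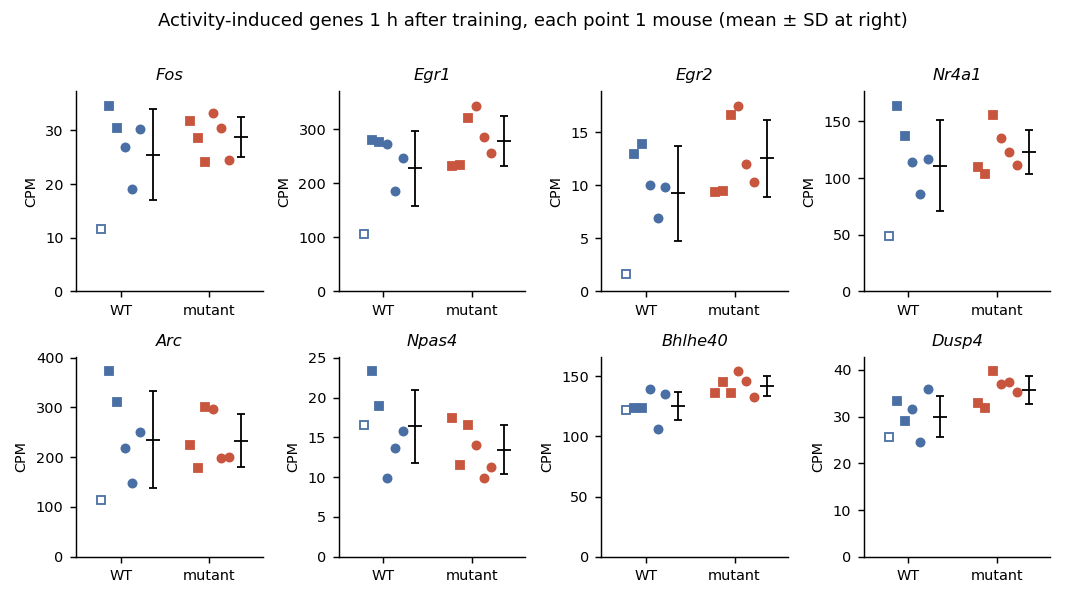
Normalized level in CPM (y axis, from 0) of 8 activity-induced genes in each mouse 1 h after training, with symbols as in the plot of named genes. The open square, WT male 1, is the lowest library for Fos, Egr1, Egr2, Nr4a1 and Arc, at 113.1 CPM for Arc, while the other WT libraries and the mutants overlap.

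Among 30 activity-induced effector genes, which act at synapses or in signalling rather than as transcription factors, 4 were higher at an unadjusted p under 0.05, beside 4.33% of all genes, and none lower. Dusp4, a phosphatase that turns off MAP kinases, was at 30.0 ± 4.44 CPM in WT against 35.7 ± 2.95 CPM in mutants (0.25, SE 0.09, p 0.0141). Errfi1, an inhibitor of the EGF receptor, was at 58.8 ± 7.99 and 67.9 ± 6.59 CPM (0.21, SE 0.09, p 0.0391). Vgf, a secreted neuropeptide precursor, was at 257.9 ± 29.2 and 290.6 ± 22.1 CPM (0.17, SE 0.08, p 0.0392), and Bdnf, the neurotrophin, at 54.7 ± 4.27 and 60.9 ± 6.15 CPM (0.16, SE 0.07, p 0.0471). The groups overlapped for all 4. The median of the 30 was 0.07 with and without WT male 1, and the members above 0 numbered 23 with it and 18 without it, beside 8459 and 8597 of all genes tested. Without it 4 members were again higher at that threshold, but Dusp5 and Inhba took the place of Errfi1 and Bdnf. Arc, which removes AMPA receptors from synapses, was at 235.6 ± 97.2 CPM in WT against 233.4 ± 53.0 CPM in mutants, with a log2 fold change of −0.15 (SE 0.22) once WT male 1 was left out, and the synaptic scaffold gene Homer1 at 152.5 ± 15.4 and 152.7 ± 10.8 CPM.

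Ion channel genes showed small differences. Of 15 voltage-gated calcium channel genes 3 were higher at an unadjusted p under 0.05 and none lower, where 4.33% of all genes were higher and 4.28% lower. Cacna1i, a T-type channel gene, was read at 83.2, 87.6, 87.3, 86.2, 82.9 and 89.3 CPM in WT against 94.96, 98.2, 103.5, 92.1, 99.1 and 93.1 CPM in mutants, without overlap (0.17, SE 0.04, adjusted p 0.207). Cacna2d3 and Cacnb1, auxiliary subunit genes, both had 0.13 (SE 0.04). Of 25 potassium channel genes 4 were higher, again beside 4.33% of all genes, and none lower. The largest difference was that of Kcnip3, a calcium-binding channel partner that also represses transcription, at 61.4 ± 6.72 and 77.5 ± 8.64 CPM (0.33, SE 0.08, p 0.0016). Kcnma1 and Kcna2 were at 0.15 and 0.11. None of 8 sodium channel genes and none of 21 AMPA and NMDA receptor or auxiliary subunit genes reached that threshold, and 1 of 12 GABA-A receptor subunit genes did, Gabrb1 at 0.18 (SE 0.06, p 0.0102). Without WT male 1, 3 of the 21 AMPA and NMDA receptor genes were higher at that threshold, Grin2d at 0.19, Cnih3 at 0.19 and Cacng5 at 0.24, and the higher potassium channel genes numbered 5.

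Among 11 Stat and Jak genes, which carry cytokine signals to the nucleus, 2 were higher and none lower at an unadjusted p under 0.05, a threshold that 4.33% of all genes passed on the higher side. Stat4 was at 0.264 ± 0.242 CPM in WT against 1.04 ± 0.344 CPM in mutants, with no overlap (1.97, SE 0.49, p 0.0014). Stat6 was read at 16.2 CPM in WT male 1, at 11.5, 9.32, 9.93, 9.38 and 10.3 CPM in the other WT libraries and at 15.5, 14.4, 12.8, 15.7, 14.6 and 15.5 CPM in mutants. Both rose in the test without WT male 1, Stat4 by 2.60 (adjusted p 0.0254) and Stat6 by 0.55 (adjusted p 0.0111) on the log2 scale, and 1 other member was lower there at an unadjusted p under 0.05. Among chromatin genes of the mark that KDM5B removes, none of 8 H3K4 demethylase genes and 1 of 14 methyltransferase or shared subunit genes reached that threshold, Rbbp5 at 0.09 (SE 0.04, p 0.0489). When WT male 1 was left out, 2 of the 8 demethylase genes were lower at that threshold, Kdm5b and Kdm2b, both at −0.10, and in the methyltransferase list Setd7 was lower at −0.11 and none was higher.

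The glucocorticoid response list of 19 genes, which rises when stress hormones act on the brain, had 2 higher members (all genes, 4.33%), Ddit4 at 0.32 (SE 0.12, p 0.0248) and Errfi1, and none lower, with a median of 0.12. With WT male 1 left out, Ddit4 was the only member at that threshold, at 0.24. Of 12 cytosolic heat shock chaperone genes 11 were below 0, beside 8802 of all 17261 genes, with a median of −0.07. At an unadjusted p under 0.05, 2 of the 12 were lower, beside 4.28% of all genes. Hspa1a, the inducible Hsp70, was read at 8.37, 21.0, 17.5, 14.7, 9.06 and 10.3 CPM in WT against 7.42, 7.80, 10.4, 8.73, 8.79 and 11.2 CPM in mutants, so the groups overlapped (−0.56, SE 0.23, p 0.032). The small heat shock protein gene Hspb1 had −0.54 (SE 0.20, p 0.0169). Of 16 genes of endoplasmic reticulum chaperones 15 were below 0, with a median of −0.09. Pdia3, Canx and Dnajc3, which fold secreted proteins, were lower at that threshold at −0.14, −0.09 and −0.11, and the stress factor gene Atf4 was higher at 0.27 (SE 0.10, p 0.0187). In the fit that omitted WT male 1, 5 of the 12 heat shock genes and 6 of the 16 endoplasmic reticulum genes were lower at that threshold. This was so for 5.06% of all genes. The list medians were −0.08 and −0.11. Hspa5, the main chaperone of the endoplasmic reticulum, was among the added genes, at −0.26. The medians of both lists in naive mice were −0.07 and −0.08, and 1 and 3 of their genes were lower at that threshold there. At 3 h the medians were 0.008 and −0.05, with 1 heat shock gene and no endoplasmic reticulum gene lower.

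Of 19 neuropeptide and granin genes, Cort and Vgf were higher and Sst and Scg5 lower at an unadjusted p under 0.05. Of all genes 4.33% were higher and 4.28% lower. After omission of WT male 1, there were 4 higher, with Adcyap1 and Tac1 added, and 1 lower, Penk in place of Sst and Scg5. The shares of all genes were then 5.27% and 5.06%. With all 12 libraries, none of 15 sterol synthesis genes and none of 14 genes of mossy fiber and granule cell development reached that threshold. Their medians were 0.03 and −0.01. Without WT male 1 the developmental factor gene Neurod6 was lower at that threshold, at −0.20.

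Markers of cell types were read beside these genes. Of all genes tested 4.33% were higher and 4.28% lower at an unadjusted p under 0.05, and 5.27% and 5.06% without WT male 1. Of 11 dentate granule cell markers 3 were higher at an unadjusted p under 0.05, C1ql2, Tdo2 at 0.34 and Prox1, the transcription factor that defines granule cells, at 0.26 (SE 0.08, p 0.00937). Their summed level was 737.4 to 916.8 CPM in WT against 841.2 to 1047 CPM in mutants. C1ql2, named above for its difference, is part of that sum, with means of 44.9 and 88.0 CPM. CA2 markers summed to 240.2 to 284.9 CPM in WT against 265.6 to 336.7 CPM in mutants, and 1 of the 7, Rgs14, was higher at that threshold, at 0.22. Of 9 CA1 markers 1 was higher, Gpr161 at 0.19, and of 9 CA3 markers 2 were higher and 1 lower, the last being Nectin3 at −0.25. The lists for astrocytes, oligodendrocyte precursors and endothelium each had 1 lower marker: Sox9 at −0.33, Neu4 at −0.21 and Slco1a4 at −0.18. Of 9 microglial markers 8 were below 0 and 1 was lower at that threshold, with a median of −0.08, and of 10 interneuron markers Sst alone was lower. None of the oligodendrocyte, mural, ependymal, striatal, thalamic or blood markers tested reached that threshold, and 2 of 8 neocortical markers were higher, Cux2 and Scnn1a, at 0.29 and 0.27. When WT male 1 was left out, no CA1 or interneuron marker reached that threshold, the higher markers numbered 4 for dentate granule cells, 3 for CA2 and 1 each for astrocytes, thalamus and ependyma, and 1 CA2 and 1 blood marker were lower.

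Choroid plexus markers differed most between libraries. All 12 were below 0 in mutants, with a median log2 fold change of −2.10. At an unadjusted p under 0.05, 9 of the 12 were lower, beside 4.28% of all genes. Their summed level was 306.1, 6505, 974.7, 476.4, 3527 and 2407 CPM in WT against 1825, 780.9, 289.3, 391.4, 330.5 and 318.7 CPM in mutants. The groups overlapped, and the 3 highest libraries were WT. Ttr, the transthyretin gene that defines this epithelium, ran from 65.9 to 4186 CPM in WT against 27.4 to 998.1 CPM in mutants. No choroid plexus marker was at 0 in any library, and the part of this tissue in the other differences was not tested. Without WT male 1, which had the lowest sum in WT, the median was −2.43. All 12 were then lower at that threshold, beside 5.06% of all genes.

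The mitochondrially encoded transcripts, listed after the values were seen, were lower in 11 of 15 genes at an unadjusted p under 0.05. The share of all genes lower at that threshold was 4.28%. The 15 genes had a median log2 fold change of −0.14 and are not separate replicates of a group. Their share of the counts was 3.83% to 4.35% in WT and 3.49% to 3.85% in mutants, with WT male 1 the lowest in WT. The widest differences were those of ATP6 at −0.67 (SE 0.21, p 0.00882), COX2 at −0.46 and COX3 at −0.45, all under 30 CPM. ND6 was at 892.6 ± 109.6 and 753.8 ± 51.1 CPM (−0.24, SE 0.07, p 0.00463). mt-Rnr2 fell by 0.33 on the log2 scale without WT male 1 (adjusted p 0.0111). With WT male 1 left out, the median was −0.16, and 10 of the 15 were lower at that threshold, beside 5.06% of all genes. At 0 h none of the 15 reached it, and at 3 h 1 was higher and 1 lower, with a median of −0.09.

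**Figure D3:**
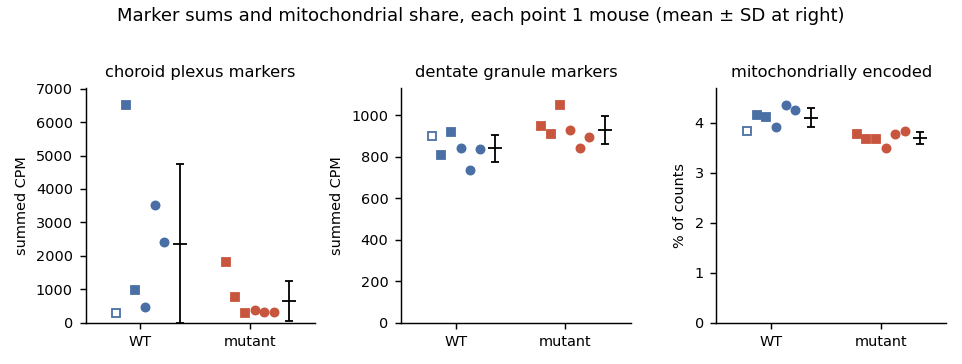
Summed CPM of the 12 choroid plexus markers and the 11 dentate granule cell markers, and the percentage of counts from mitochondrially encoded genes (y axes, from 0), in each mouse 1 h after training, with symbols as in the plot of named genes. Choroid plexus sums reach 6505 CPM in WT against 1825 CPM in mutants, and the mitochondrial share is 3.83% to 4.35% in WT and 3.49% to 3.85% in mutants.

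Kdm5b lies on chromosome 1, and 7 of the 26 named genes lie on the same chromosome, 2 higher and 5 lower. Of 994 chromosome 1 genes tested, 146 had an unadjusted p under 0.05, or 14.7% beside 8.61% of all genes. Among the other nuclear chromosomes the highest share was the 12.2% of chromosome 15. Of the 41 genes called without WT male 1, 13 (31.7%) were on chromosome 1, which held 5.76% of the genes tested. The share was highest between 50 and 75 Mb before Kdm5b, at 22.3% of 139 genes, where Utp14b, Serpine2, Asic4 and Wnt10a lie. Within 25 Mb of Kdm5b it was 12.2% of 222 genes, 15 higher and 12 lower. In this cross, both Kdm5b alleles of a mutant come from the C57BL/6J-background line and both of a WT mouse from 129S2/Sv, so for linked genes the effect of the allele and that of strain DNA around it cannot be told apart.

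**Figure D4:**
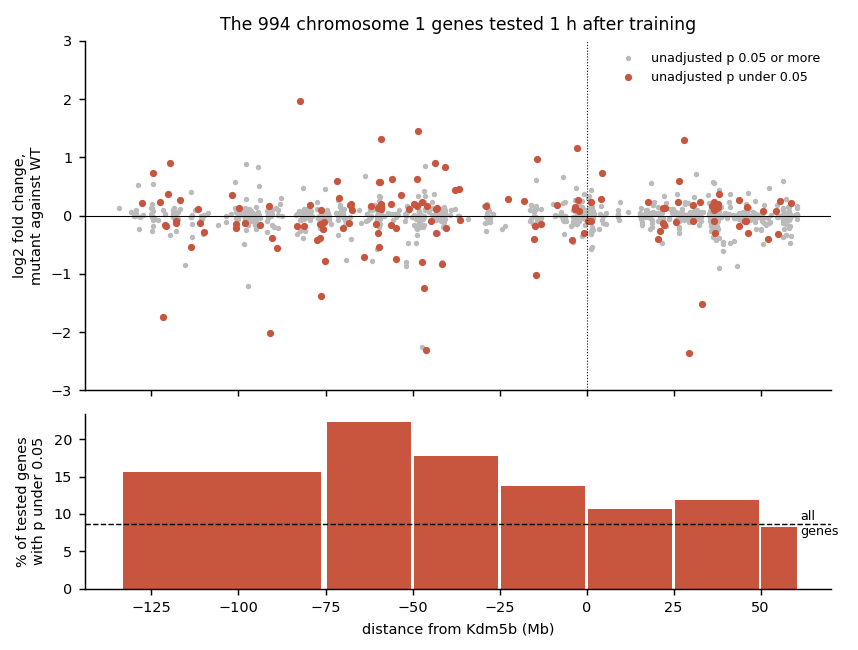
The upper panel plots the log2 fold change (mutant over WT) at 1 h for the 994 tested genes of chromosome 1 against their distance from Kdm5b in Mb, and the lower panel the percentage of tested genes with an unadjusted p under 0.05 in each stretch. The dashed line marks the 8.61% of all genes, and the share peaks at 22.3% between 50 and 75 Mb before Kdm5b.

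The mice of 0 h and 3 h are separate animals and took no part in choosing the 26 genes. At 0 h, 24 of the 26 had the sign they had at 1 h, and 7 of those had an unadjusted p under 0.05, a count that became 12 without WT male 1 of 0 h and 14 without mutant male 1 of 0 h. At 3 h those counts were 25 and 11, and the second was 14 without the library labelled mutant female 2. Among all genes tested, 57.1% kept their sign at 0 h and 4.62% did so with an unadjusted p under 0.05, and at 3 h the shares were 56.4% and 4.48%. The share of all genes with an unadjusted p under 0.05 in either direction was 6.15% at 0 h and 6.36% at 3 h.

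Utp14b had log2 fold changes of 0.51 (SE 0.16, p 0.00600) at 0 h and 0.69 (SE 0.08, p 6.13e-07) at 3 h, beside 0.63 at 1 h, and all 6 mutants lay above all WT libraries at 3 h. Wdr95 had 1.24 and 1.41, Arsi 0.96 and 1.06, and Pcdhga2 0.49 and 0.62. C1ql2 had 0.57 (SE 0.30, p 0.0917) and 0.68 (SE 0.32, p 0.0627), with 3 and 4 of 6 mutants above all WT libraries. C1qtnf4, in contrast, was at 0.05 (SE 0.07) and 0.07 (SE 0.09), C1ql3 at 0.00 and 0.04, and Ccnd1 at −0.0023 and −0.06.

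The difference between time points was tested as an interaction. No gene of 17907 passed for 1 h against 0 h by edgeR, whereas DESeq2 called 2, and 677 (3.78%) had an unadjusted p under 0.05. For 1 h against 3 h no gene of 17911 passed by either tool, and 801 (4.47%) had an unadjusted p under 0.05. C1qtnf4 had an interaction p of 0.00721 against 0 h and 0.0254 against 3 h, 4930413G21Rik 0.00654 and 0.00193, and Zxda 0.0002 and 0.167, all unadjusted. C1ql2 had 0.26 and 0.41. By the edgeR test, then, no gene was shown to differ between genotypes by another amount at 1 h than at the other times.

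**Figure D5:**
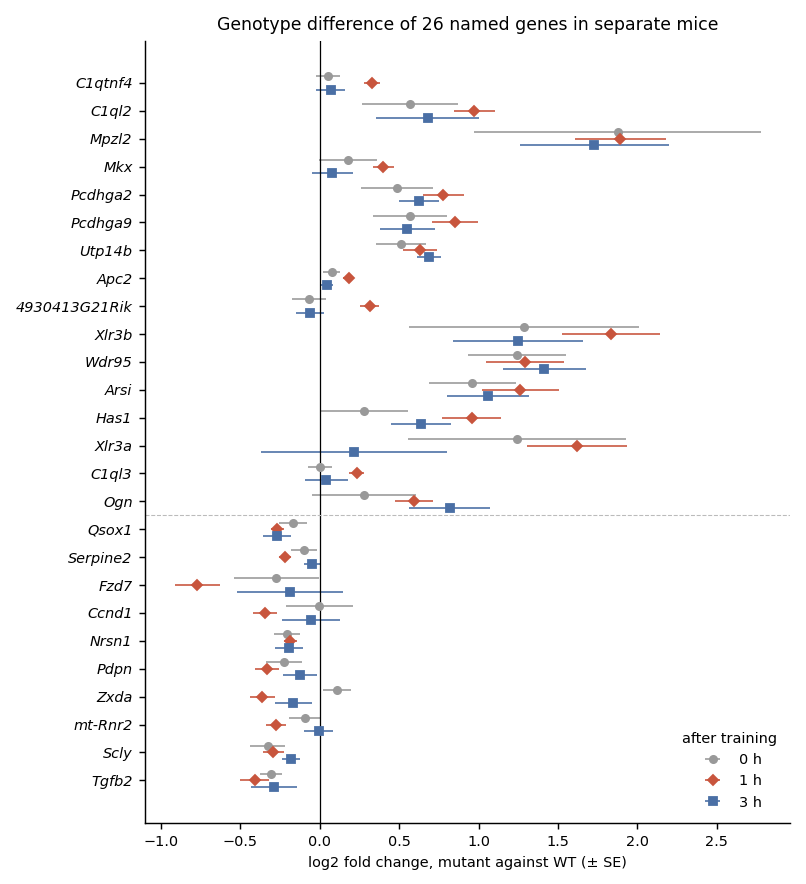
Log2 fold change of mutant against WT, with its SE, for the 26 named genes at 0 h, 1 h and 3 h, each time in 12 separate mice; genes above the dashed line were chosen as higher at 1 h and those below it as lower. Mpzl2, Wdr95, Arsi and Utp14b lie at like values at all 3 times, while C1qtnf4 is at 0.33 at 1 h and at 0.05 and 0.07 at 0 h and 3 h.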

How the data were processed

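RNA of dorsal hippocampus was sequenced by the authors as paired poly-A libraries, aligned with STAR 2.7.8a to mm10 and counted with featureCounts 2.0.1, per the labels. The deposited files give whole-number counts, one per gene and library, with no normalization. The annotation, strand setting and handling of multimapping reads were not given in the sources used here. The 36 libraries with counts were read, and 8 further samples were not analysed here. Mutant and WT mice at 1 h were compared with edgeR 4.0.16 in R 4.3.3 (TMM, filterByExpr with a minimum of 10 counts, quasi-likelihood F-test, sex label as covariate, Benjamini-Hochberg adjustment over all genes tested). DESeq2 1.42.0 and other settings were tried as alternatives. Named genes were the 16 higher and 10 lower genes with the smallest p at a mean of at least 1 CPM. The comparison, the gene lists and these rules were chosen with earlier results of these data known. Names, positions and promoter sequences come from RefSeq GRCm38.p6. The test was also run on counts simulated with the means and spread of the 1 h libraries. It called 14 of 49 genes changed by 0.25 on the log2 scale, 26 of 50 changed by 0.5 and 36 of 49 changed by 1. Small differences can thus be missed. P-values rest on the spread between separate mice. A few single-gene values are not reported here.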

Additional observations from a re-analysis of the deposited data

Results flagged for a closer look

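Among 140 groups of 6 values examined, 8 held a library that stood apart from the other 5, and chance flags about 1 in 20 groups. In WT male 1, C1ql2 was at 64.2 CPM against 38.7 to 46.0 CPM in the other WT libraries, Wdr95 at 1.81 CPM against 0.665 to 1.02 CPM, and the summed endothelial markers at 140.2 CPM against 155.7 to 161.1 CPM. In WT male 2, the astrocyte markers summed to 4532 CPM against 5259 to 5658 CPM and the blood markers to 73.5 CPM against 10.7 to 34.2 CPM. In WT female 2, Utp14b was at 6.52 CPM against 8.63 to 9.85 CPM. In mutant male 1, Mkx was at 15.4 CPM against 17.1 to 17.98 CPM, and the choroid plexus markers summed to 1825 CPM against 289.3 to 780.9 CPM.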

How the results depend on the processing

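The count of genes called at 1 h was 0 by edgeR and 100 by DESeq2 with sex, 98 by DESeq2 with no covariate and a prior, and 3 by edgeR with no sex covariate. Leaving out 1 library at a time gave 0 to 41 calls, the 41 being without WT male 1. DESeq2 with a prior and without WT male 1, an alternative chosen after seeing the data, called 251, 155 higher and 96 lower. Other size factors, other filters, a fit of all 36 libraries, sex as the counts show it and leaving out mitochondrial and ribosomal RNA genes gave 0. With sex and replicate number as a replicate block 5 genes were called, but same-numbered mice did not deviate together (correlations of −0.03 to 0.11), so the numbers were not taken to pair samples. For the interaction of 1 h against 0 h, DESeq2 called 2 genes. The 7 named genes that kept their direction at 0 h with an unadjusted p under 0.05 became 5 to 14 when 1 library was left out, 12 without WT male 1 of 0 h and 14 without mutant male 1 of 0 h. The alternatives refit the libraries on which the 26 named genes were chosen, so a reversal was unlikely. Kdm5b and the 26 genes kept their direction in all of 620 alternative values. Their sizes moved by over 1.5 times mainly under the prior of DESeq2, which shrinks fold changes: Xlr3b went from 1.83 to 0.17, Mpzl2 from 1.89 to 0.45, Xlr3a from 1.62 to 0.24 and Wdr95 from 1.29 to 0.35. Copies such as Xlr3a and Xlr3b and overlapping genes limit what a count shows, and bulk tissue does not separate cell types.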
